A study of Mus musculus with 15 samples.

Results

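The levels of 9 genes of the epithelial state were followed through the differentiation of mouse neuromesodermal progenitors (NMPs): Epcam, Cldn4, Cldn6, Cldn7, Krt8, Krt18, Krt19, Grhl2 and Esrp1. They were chosen by symbol, each symbol has 1 row in the deposited table, and they are 9 of its 56092 named genes. All groups derive from STR-KI mouse embryonic stem cells, which carry an mCherry reporter on 1 Sox2 allele and a GFP reporter on 1 allele of Tbxt (the Brachyury gene), so every group shared the genotype Sox2::mCherry/WT, Tbxt::GFP/WT. NMPs, caudal progenitors able to form spinal cord and paraxial mesoderm, were made with 10 ng/mL FGF2 for 48 h and then FGF2 with 5 µM CHIRON99021 (CHIR, an activator of WNT signalling) for 24 h. The 15 bulk RNA libraries fall into 8 sorted groups.

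Sox2 48 h cells (2 libraries) and Tbxt 48 h cells (2 libraries) were cultured for 48 h in FGF/CHIR after the NMP stage and sorted as mCherry-positive or as GFP-positive. The 7 d groups of Sox2-derived cells grew in medium with FGF/CHIR or with FGF only. They were taken as mCherry-positive cells (FGF/CHIR Sox2+, 1 library, and FGF Sox2+, 2 libraries) or as double-negative (DN) cells, without either reporter (FGF/CHIR DN and FGF DN, 1 library each). The 7 d group of Tbxt-derived cells grew in FGF/CHIR and was taken as double-negative cells (Tbxt 7 d, 3 libraries). NMPs (3 libraries), positive for both reporters, were the starting cells. All groups came from 1 line, and the labels do not say whether libraries of a group came from separate cultures, so p-values measure the spread between these libraries, which may be technical. A group with 1 library cannot be told apart from that library.

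Epithelial cells are held together by tight junctions, adherens junctions and desmosomes, and carry a cytoskeleton of keratin filaments. EPCAM is a cell surface glycoprotein of epithelia and of pluripotent stem cells, claudins are the membrane proteins that form the strands of tight junctions, and keratins 8, 18 and 19 are the keratins of simple epithelia. GRHL2, a transcription factor, and ESRP1, a splicing regulator, maintain the epithelial state, while repressors of the SNAI and ZEB families bind E-boxes in the promoters of epithelial genes when cells leave it, as epiblast cells do when they form mesoderm at the primitive streak.

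The promoters of 4 of these genes are shown, those of the gene that was high at the start, of an embryonic claudin and of the neighbouring keratin pair. They run from 250 bases before to 50 bases after the annotated start. Capitals mark every match to the E-box CACCTG or CAGGTG, which are each other's reverse complement. The windows come from RefSeq on GRCm38.p6, an older build than the GRCm39 of the submitters' processing notes, and lie at chr17:87635729-87636028 (Epcam, plus strand), chr17:23679115-23679414 (Cldn6, plus strand), chr15:102004293-102004592 (Krt8, minus strand) and chr15:102027966-102028265 (Krt18, plus strand).
Epcam: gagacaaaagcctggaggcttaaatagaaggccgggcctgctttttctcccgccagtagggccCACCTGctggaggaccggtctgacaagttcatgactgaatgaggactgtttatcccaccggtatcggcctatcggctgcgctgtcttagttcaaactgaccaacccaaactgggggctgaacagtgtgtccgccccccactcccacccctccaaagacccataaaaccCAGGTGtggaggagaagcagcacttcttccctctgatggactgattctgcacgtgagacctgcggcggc
Cldn6: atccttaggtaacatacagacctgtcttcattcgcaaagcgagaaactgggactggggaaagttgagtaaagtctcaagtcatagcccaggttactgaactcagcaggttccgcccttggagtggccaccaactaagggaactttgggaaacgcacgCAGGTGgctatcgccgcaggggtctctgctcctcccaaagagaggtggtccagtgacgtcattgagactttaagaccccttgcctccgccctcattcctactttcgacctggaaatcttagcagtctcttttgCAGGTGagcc
Krt8: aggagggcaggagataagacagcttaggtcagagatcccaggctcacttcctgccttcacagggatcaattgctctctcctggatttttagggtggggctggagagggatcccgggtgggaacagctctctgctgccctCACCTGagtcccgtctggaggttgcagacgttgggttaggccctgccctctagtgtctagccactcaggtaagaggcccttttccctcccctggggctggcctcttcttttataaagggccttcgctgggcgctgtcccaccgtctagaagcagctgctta
Krt18: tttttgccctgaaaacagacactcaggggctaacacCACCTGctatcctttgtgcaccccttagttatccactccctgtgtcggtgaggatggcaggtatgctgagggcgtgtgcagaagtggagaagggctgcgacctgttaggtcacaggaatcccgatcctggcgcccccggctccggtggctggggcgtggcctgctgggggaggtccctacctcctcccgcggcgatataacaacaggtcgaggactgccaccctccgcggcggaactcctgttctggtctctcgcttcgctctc

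The first base of the matches lay at -187 and -19 from the start in Epcam, at -93 and +41 in Cldn6, at -111 in Krt8 and at -214 in Krt18. RefSeq windows were found for 6 of the 9 genes, 7 windows in all because Cldn7 has 2. An E-box of this kind was found in 6 of the 7 windows, against 6640 of all 32851 promoter windows (20.2%). The palindrome AACCGGTT, a form of the GRHL binding motif, was found in 0 of the 7 windows and in 48 of all windows (0.146%). These are matches of letters, not measured binding sites. Krt8 and Krt18 are direct neighbours among the coding genes of chromosome 15, Cldn4 lies next to Cldn3 on chromosome 5, and Cldn6 lies next to Cldn9 on chromosome 17.

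Values are CPM, read counts scaled to the same library total. The step between low values gave 3434422 to 9877707 reads in 14 libraries, in which 3 reads equal 0.304 to 0.874 CPM, and 798695 reads in FGF Sox2+ replicate 2, in which 3 reads equal 3.76 CPM. These floors cover counting error only. At the NMP stage and at 48 h the sorted reporters followed their labels. Sox2 stood at 219 ± 2.62 CPM in Sox2 48 h and 36.3 ± 3.01 CPM in Tbxt 48 h cells (SD, n = 2 each), against 209.7 ± 40.5 CPM in NMPs (SD, n = 3). Tbxt stood at 30.7 ± 1.98, 219 ± 4.64 and 387 ± 89.3 CPM in the same groups. At 7 d mean Sox2 stood at 29.1 CPM in FGF DN, 5.03 CPM in FGF/CHIR DN and 0.573 CPM in Tbxt 7 d cells. It stood at 389 CPM in FGF Sox2+ and 199 CPM in FGF/CHIR Sox2+ cells. Mean Tbxt stood at 20.4, 1.14, 1.03, 6.82 and 15.4 CPM in that order of groups. The FGF DN library thus held more of both transcripts than the other DN groups. Values of Epcam, Krt8 and Krt19 were whole reads within 0.02 reads in 11 of 15, 6 of 14 and 9 of 14 libraries above 0, so their other values hold fractions of a read, and these levels are less certain. The other 6 genes held whole reads in every library above 0. In bulk RNA, fewer cells of a type and less RNA per cell cannot be told apart.

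A fold change below is a log2 fold change ± SE on the log2(CPM + 1) scale, first group over second, from a limma fit of all 15 libraries over 12943 genes, and understates the change of low genes. "Rose" and "fell" are used of genes with an adjusted p under 0.05, and "higher" and "lower" also of values set side by side without a test. Where a side of a comparison (both groups together where 2 are averaged) holds 3 reads or fewer of a gene, its levels are printed and no fold change. All 9 genes entered the fit, which asked for at least 5 CPM in at least 2 libraries. Grhl2 met this in FGF Sox2+ replicate 1 and FGF DN alone, Cldn7 in the 4 libraries of FGF/CHIR DN, FGF Sox2+ and FGF DN cells alone, and Krt19 in the 5 libraries of 7 d Sox2-derived cells alone. Esrp1 met it in 6 libraries, all of NMP, FGF/CHIR DN, FGF Sox2+ and FGF DN cells. Grhl2, Cldn7, Krt19 and Esrp1 thus entered the fit only through groups in which they are high. Their calls between those groups and the others are therefore descriptions. The same holds for genes of the other lists named below that met the filter only in groups in which they are high.

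Epcam was high at the start. It stood at 91.7, 102 and 104 CPM in the 3 NMP libraries, at 14.9 and 9.83 CPM in Sox2 48 h cells, and at 1.82 and 1.86 CPM in Tbxt 48 h cells. At 7 d it stood at 19.3 CPM in FGF/CHIR Sox2+ cells, 68.5 CPM in FGF/CHIR DN cells, 147 and 67.6 CPM in FGF Sox2+ cells, 186 CPM in FGF DN cells and 1.46, 2.97 and 2.90 CPM in Tbxt 7 d cells. The order of the groups was thus FGF DN, FGF Sox2+, NMP, FGF/CHIR DN, FGF/CHIR Sox2+, Sox2 48 h and then both Tbxt groups, where the FGF Sox2+ libraries lay on both sides of the NMP libraries and the Tbxt 48 h values lay within the Tbxt 7 d range.

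The claudins were low at the NMP stage. Cldn6, a claudin of early embryonic epithelia, stood at 11.9, 10.5 and 8.59 CPM in NMPs, 8.08 and 6.63 CPM in Sox2 48 h and 0.405 and 0.338 CPM in Tbxt 48 h cells. At 7 d it reached 10.3 CPM in FGF/CHIR Sox2+ cells, 41.4 CPM in FGF/CHIR DN cells, 58.2 and 27.5 CPM in FGF Sox2+ cells, with 119 CPM in FGF DN cells, and it was listed at 0 in all 3 Tbxt 7 d libraries. FGF Sox2+ libraries lay on both sides of the FGF/CHIR DN value, and the FGF/CHIR Sox2+ value lay within the NMP range.

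Cldn4, a barrier-forming claudin of tight junctions, stood at 4.41, 2.73 and 5.92 CPM in NMPs, 10.9 and 6.4 CPM in Sox2 48 h and 1.42 and 0.338 CPM in Tbxt 48 h cells. At 7 d it stood at 12.3 CPM in FGF/CHIR Sox2+ cells, 49.8 CPM in FGF/CHIR DN cells, 59.0 and 22.5 CPM in FGF Sox2+ cells, 57.2 CPM in FGF DN cells, and 0, 0 and 0.263 CPM in Tbxt 7 d cells. The FGF DN and FGF/CHIR DN values lay between the 2 FGF Sox2+ libraries.

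Cldn7, a claudin that binds EPCAM in the cell membrane, stood at 2.98, 2.57 and 2.67 CPM in NMPs, 1.77 and 0.457 CPM in Sox2 48 h and 0.101 and 0.169 CPM in Tbxt 48 h cells. It stood at 4.21 CPM in FGF/CHIR Sox2+ cells, 35.2 CPM in FGF/CHIR DN cells, 44.6 and 16.3 CPM in FGF Sox2+ cells, 85.4 CPM in FGF DN cells, and 0, 0.198 and 0 CPM in Tbxt 7 d cells. The Tbxt 48 h and Tbxt 7 d ranges overlapped, at 2 reads and 1 read in all.

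Keratins 8 and 18, type II and type I keratins that pair to form a filament, had like levels in most libraries. Krt8 stood at 5.90, 6.27 and 6.91 CPM in NMPs, 11.6 and 7.20 CPM in Sox2 48 h and 3.29 and 4.30 CPM in Tbxt 48 h cells, and Krt18 at 4.67, 6.11 and 3.83 CPM, at 12.4 and 11 CPM and at 2.43 and 1.35 CPM in the same libraries. At 7 d Krt8 stood at 12.7 CPM in FGF/CHIR Sox2+ cells, 115 CPM in FGF/CHIR DN cells, 132 and 102 CPM in FGF Sox2+ cells, 461 CPM in FGF DN cells, and 0.291, 0 and 0.395 CPM in Tbxt 7 d cells. Krt18 stood at 14.4, 115, 123 and 68.9, 316, and 1.16, 0 and 1.32 CPM in that order of groups.

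FGF DN was the highest group of both keratins and Tbxt 7 d the lowest, and the 3 Tbxt 7 d libraries lay below every other library. In the 10 libraries with more than 5 CPM of Krt8, the ratio of Krt8 to Krt18 CPM lay between 0.656 and 1.80 (median 1.05), while the Krt8 level itself ran from 5.90 to 461 CPM. Of the 36 pairs of the 9 genes, Krt8 and Krt18 had the highest Pearson r over the 8 group means of log2(CPM + 1), 0.989. This is a description over 8 groups that share libraries and depth between the genes.

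**Figure D1:**
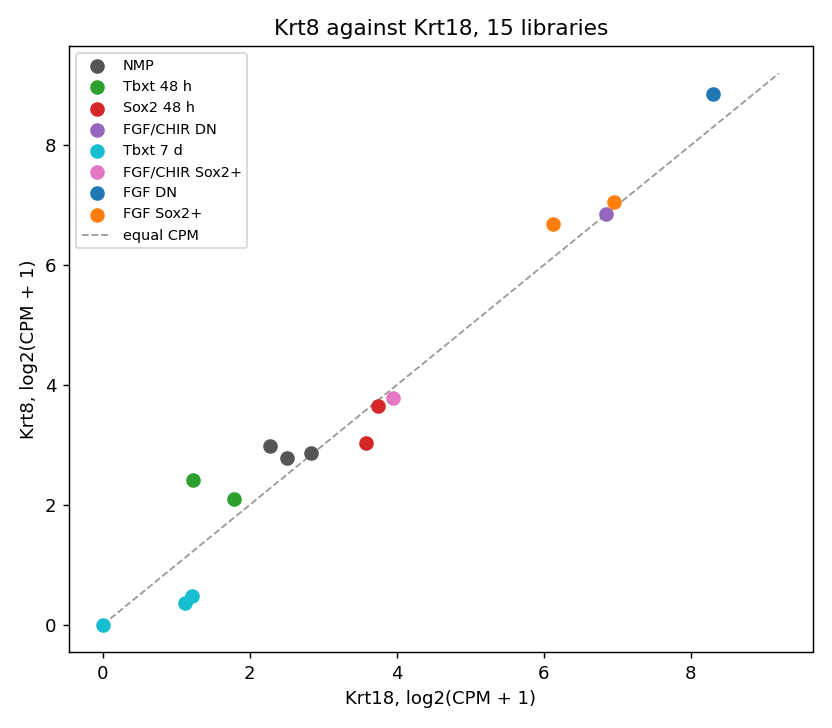
Krt8 (vertical axis) against Krt18 (horizontal axis) in log2(CPM + 1), 1 point for each of the 15 libraries, coloured by group, with a dashed line at equal CPM. Points lie along the line from the Tbxt 7 d libraries at the bottom left to FGF DN at the top right, where Krt8 stood at 461 and Krt18 at 316 CPM.

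Krt19, a further type I keratin of simple epithelia, had the order of group means of Krt8, except that Tbxt 48 h stood above NMPs. It stood at 1.17, 1.15 and 0.581 CPM in NMPs, 4.10 and 3.66 CPM in Sox2 48 h and 4.54 and 2.43 CPM in Tbxt 48 h cells, where the 2 Tbxt 48 h libraries lay on both sides of the Sox2 48 h libraries. At 7 d it stood at 6.17 CPM in FGF/CHIR Sox2+ cells, 7.54 CPM in FGF/CHIR DN cells, 11 and 6.47 CPM in FGF Sox2+ cells, 40.9 CPM in FGF DN cells and 2.33, 0 and 0.263 CPM in Tbxt 7 d cells. The ratio of Krt19 to Krt18 was 1.87 and 1.80 in Tbxt 48 h cells, against 0.25, 0.189 and 0.152 in NMPs, and it was 0.0898 and 0.0940 in FGF Sox2+ cells.

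Grhl2 and Esrp1 are the regulators among the 9 genes. Esrp1 stood at 4.02, 5.15 and 5.46 CPM in NMPs, 0.252 and 0.686 CPM in Sox2 48 h cells, and 0.101 and 0 CPM in Tbxt 48 h cells. It stood at 0.822 CPM in FGF/CHIR Sox2+ cells, 5.71 CPM in FGF/CHIR DN cells, 13.4 and 11.3 CPM in FGF Sox2+ cells, 22.1 CPM in FGF DN cells, and at 0 in all 3 Tbxt 7 d libraries. The NMP libraries were thus above every 48 h library and below every FGF library.

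Grhl2 stood at 1.04, 1.77 and 1.28 CPM in NMPs and at 0.252 and 0.457 CPM in Sox2 48 h cells, and was listed at 0 in both Tbxt 48 h libraries. At 7 d it stood at 0.308 CPM in FGF/CHIR Sox2+ cells, 2.74 CPM in FGF/CHIR DN cells, 8.92 and 0 CPM in FGF Sox2+ cells, 6.4 CPM in FGF DN cells and 0.291, 0 and 0 CPM in Tbxt 7 d cells. The FGF Sox2+ libraries disagreed, and the 0 of replicate 2 allows a level of up to 3.76 CPM at its depth.

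**Figure D2:**
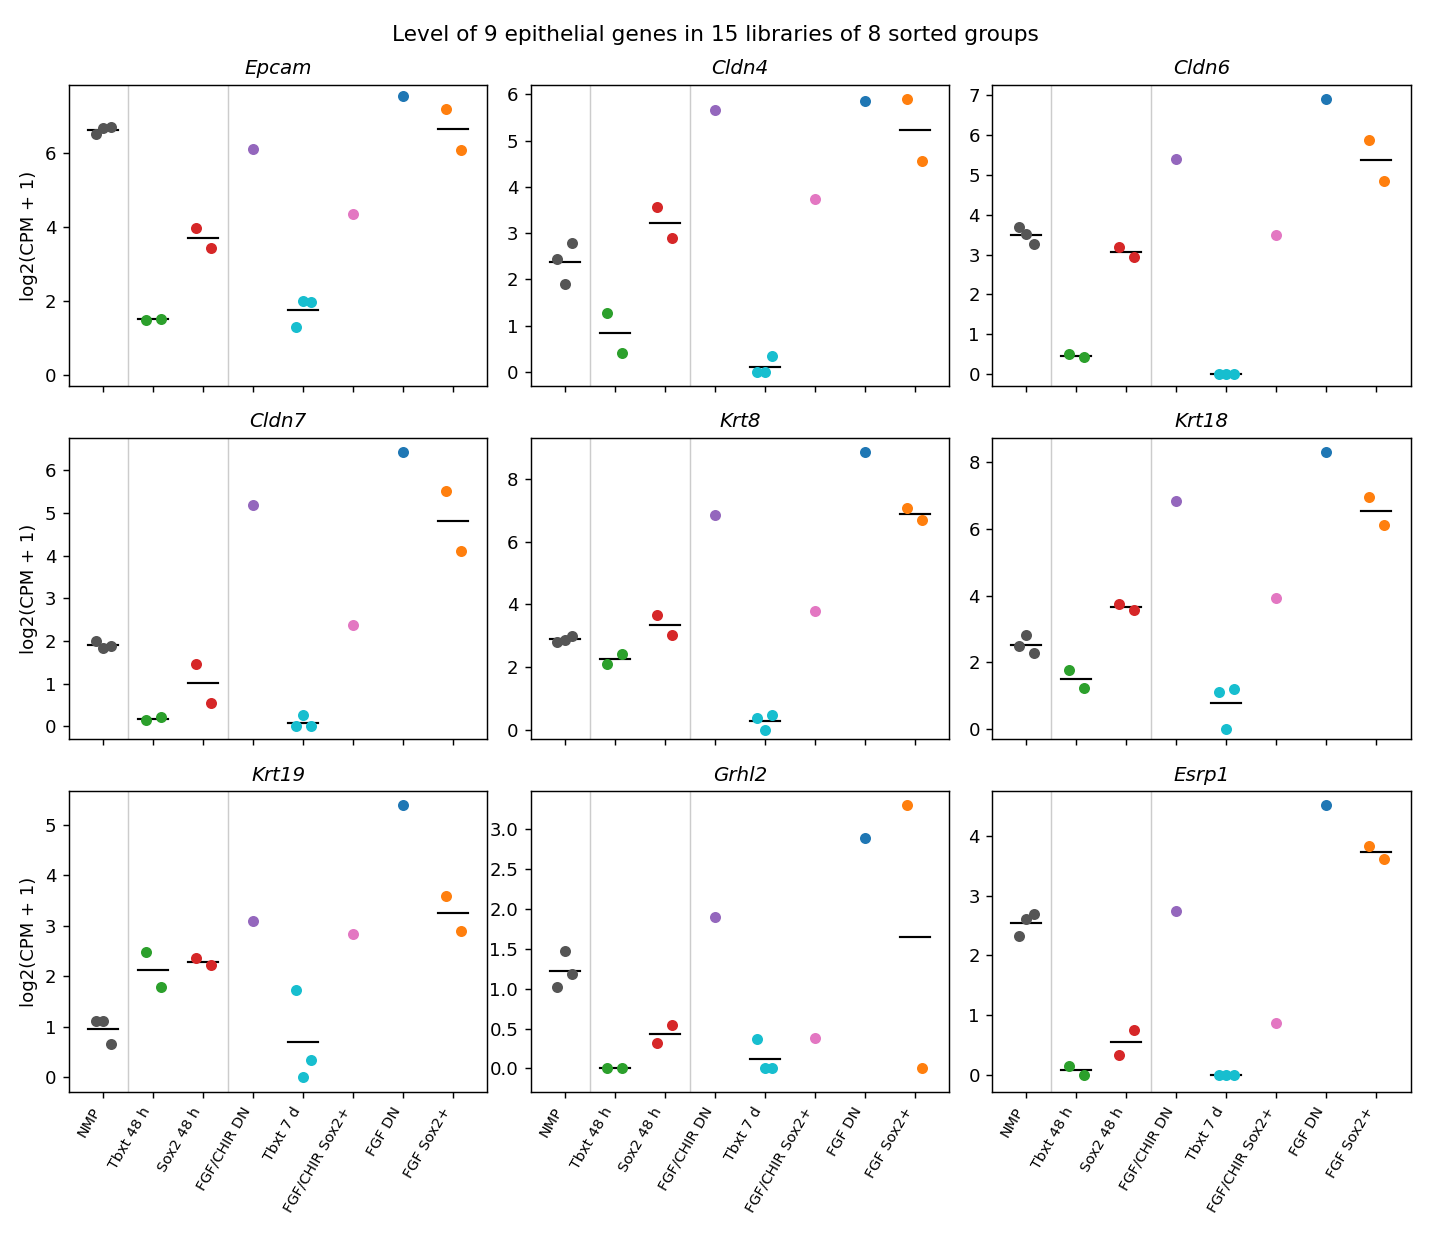
Level of each gene in log2(CPM + 1) (vertical axes) in the 8 sorted groups (horizontal axis), 1 point per library and a black line at the mean of groups with more than 1 library. Vertical grey lines part the NMP stage, the 48 h groups and the 7 d groups. Tbxt 7 d cells were low for all 9 genes and FGF DN cells had the highest group mean for all 9, while Epcam alone had a higher mean in NMPs than in FGF/CHIR DN cells.

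Sox2 48 h cells were first set against the NMPs they came from. Epcam fell by 2.93 on the log2 scale (SE 0.30, adjusted p = 8.2e-05) and Esrp1 fell by 2.01 (SE 0.29, adjusted p = 0.0010) in Sox2 48 h cells against NMPs. With 2 of the 9 genes lower and 0 higher, their share can be read against 5.27% of all tested genes lower and 2.65% higher. The call on Esrp1 is a description, since it entered the fit only through groups in which it is high. Krt18 (1.13 ± 0.36, adjusted p = 0.083), Krt19 (1.32 ± 0.46, adjusted p = 0.11), Cldn4 (0.85 ± 0.42, adjusted p = 0.27) and Krt8 (0.47 ± 0.24, adjusted p = 0.30) did not pass the test, although no Sox2 48 h library overlapped the NMP libraries for any of them.

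Cldn6, Cldn7 and Grhl2 did not pass either, and their Sox2 48 h libraries all lay below the NMP libraries. Such separation of libraries was not counted over all tested genes, so it is a description and no result about the 9 genes. Within a library, the ratio of Epcam to Krt8 CPM was 1.28 and 1.37 in Sox2 48 h cells, against 15.5, 16.3 and 15.1 in NMPs, and it was 0.554 and 0.431 in Tbxt 48 h cells. At 7 d the ratio was 1.52 in FGF/CHIR Sox2+ cells, 0.597 in FGF/CHIR DN cells, 1.11 and 0.663 in FGF Sox2+ cells and 0.402 in FGF DN cells. Each of these later ratios was below those of the NMP libraries, and none is given for Tbxt 7 d cells, which held few Krt8 reads. Such a ratio shows unequal change of the pair, not which of them changed.

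Other junction genes moved in the same comparison. Cdh1 (-3.84 ± 0.34), the gene of E-cadherin, and Dsg2 (-2.97 ± 0.38), a desmosomal cadherin gene, were lower, 2 of 10 tested genes of adherens junctions and desmosomes (median -0.69). Of 15 tested tight junction genes, 3 were lower (median -0.58): Ocln (-2.28 ± 0.32), the occludin gene, the tricellular junction gene Lsr (-1.47 ± 0.28) and the polarity gene Llgl2 (-1.55 ± 0.34). Spint1 (-3.01 ± 0.27) and Spint2 (-1.82 ± 0.26), inhibitors of membrane serine proteases, and St14 (-1.73 ± 0.36), the matriptase gene, were among 5 of 10 lower genes of the epithelial surface and trafficking (median -1.10). Klf5 (-2.14 ± 0.39) was the 1 of 5 tested epithelial regulators that passed the test (median -1.09). The median over all tested genes was -0.01. The summed level of 5 pluripotency markers (Pou5f1, Nanog, Utf1, Dppa5a and Zfp42) was 15.2 to 15.5 CPM in Sox2 48 h cells, against 243 to 367 CPM in NMPs, and its part in the fall of Epcam was not tested.

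In cells that kept the Tbxt reporter, more of the set was lower. Epcam (-5.14 ± 0.30, adjusted p = 7.5e-07), Cldn6 (-3.04 ± 0.29, adjusted p = 2.9e-05) and Cldn4 (-1.53 ± 0.42, adjusted p = 0.024) fell in Tbxt 48 h cells against NMPs. Esrp1 (0.101 and 0 CPM against 4.02 to 5.46 CPM, adjusted p = 0.00013) and Cldn7 (0.101 and 0.169 CPM against 2.57 to 2.98 CPM, adjusted p = 0.0097) were also lower, 5 of the 9 genes, and 0 were higher. Over all tested genes, 10.5% were lower and 7.82% higher. The call on Esrp1 is again a description, given the groups through which it entered the fit. Grhl2, listed at 0 in both libraries, was at least 3.36-fold lower against the 3-read floor per library (adjusted p = 0.24). Krt8 (-0.62 ± 0.24), Krt18 (-1.03 ± 0.36) and Krt19 (1.16 ± 0.46) did not pass the test, with Krt19 above NMPs in both libraries. Pluripotency markers summed to 3.73 to 4.89 CPM in Tbxt 48 h cells, against 243 to 367 CPM in NMPs, and their part in the lower levels was not tested. Without Tbxt 48 h replicate 2 the count was 3, since Cldn4 (adjusted p 0.0087 to 0.28 over its alternatives) and Cldn7 (0.00026 to 0.10) no longer passed. The call on Cldn4 was also lost without NMP replicate 1 or 3, and that on Cldn7 without Tbxt 48 h replicate 1.

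Other junction genes were lower too. Of 15 tight junction genes 7 fell and 0 rose (median -0.80), among them Ocln (-2.74 ± 0.32), Marveld2 (-2.69 ± 0.41), the gene of tricellulin, and Lsr (-2.09 ± 0.28). Cdh1 (-6.10 ± 0.34), Dsg2 (-3.87 ± 0.38) and Pkp2 (-2.16 ± 0.46), a desmosomal plaque gene, were among 5 of 10 lower genes of adherens junctions and desmosomes (median -1.05, or -1.04 with a gene at 0 set at its bound). St14 (-3.47 ± 0.36), Spint2 (-3.36 ± 0.26) and Spint1 (-2.55 ± 0.27) were among 6 of 10 lower surface and trafficking genes (median -1.30, or -1.56 with a gene at 0 set at its bound), and the median over all tested genes was -0.02. The regulators split: Klf5 (-3.17 ± 0.39) and Esrp2 (0.10 CPM against 2.04 CPM in NMPs, adjusted p = 0.0085), the paralog of Esrp1, were among 3 lower, while Grhl3 (1.75 ± 0.32), the paralog of Grhl2, was higher. Snai1 (4.02 ± 0.25), which encodes a repressor of Cdh1, and Zeb1 (1.44 ± 0.32) were the 2 that rose among 8 genes of transcription factors of the epithelial-to-mesenchymal transition (EMT factors).

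The 2 sorted populations differed directly at 48 h. Cldn6 (-2.60 ± 0.32, adjusted p = 0.00050), Epcam (-2.21 ± 0.33, adjusted p = 0.0023), Krt18 (-2.16 ± 0.40, adjusted p = 0.0094), Cldn4 (-2.38 ± 0.46, adjusted p = 0.011) and Krt8 (-1.09 ± 0.27, adjusted p = 0.039) were lower in Tbxt 48 h cells than in Sox2 48 h cells. These are 5 of the 9 genes, and 1.85% of all tested genes were lower and 2.05% higher. Krt19 differed by -0.16 ± 0.50 (adjusted p = 0.90). Calls were lost when single libraries were left out. Without Sox2 48 h replicate 1 the count was 3, it was also 3 without Sox2 48 h replicate 2, and leaving out Tbxt 48 h replicate 2 gave 2. Krt8 passed in 9 of its 20 alternatives (adjusted p 0.022 to 0.22) and was lost without any one of the 4 libraries compared, or without NMP replicate 2 or 3. Cldn4 (0.0016 to 0.18) was lost without Sox2 48 h replicate 1 or Tbxt 48 h replicate 2, and Krt18 (0.00071 to 0.14) without Sox2 48 h replicate 2 or Tbxt 48 h replicate 2.

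Snai1 (5.20 ± 0.28) was higher in Tbxt 48 h cells in the same comparison, at 98.0 CPM against 1.67 CPM in Sox2 48 h cells. Cdh1 (0.25 CPM against 5.12 CPM, -2.26 ± 0.37) and Cldn3 (0.47 CPM against 6.56 CPM, -2.33 ± 0.41), the neighbour of Cldn4, were lower. Tight junction genes gave 1 lower of 15 (median -0.46), surface and trafficking genes gave 2 of 10 (St14, -1.74 ± 0.39, and Spint2, -1.54 ± 0.29, median -0.16), and the median over all tested genes was 0.02. Pluripotency markers summed to 3.73 to 4.89 CPM in Tbxt 48 h cells, against 15.2 to 15.5 CPM in Sox2 48 h cells.

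**Figure D3:**
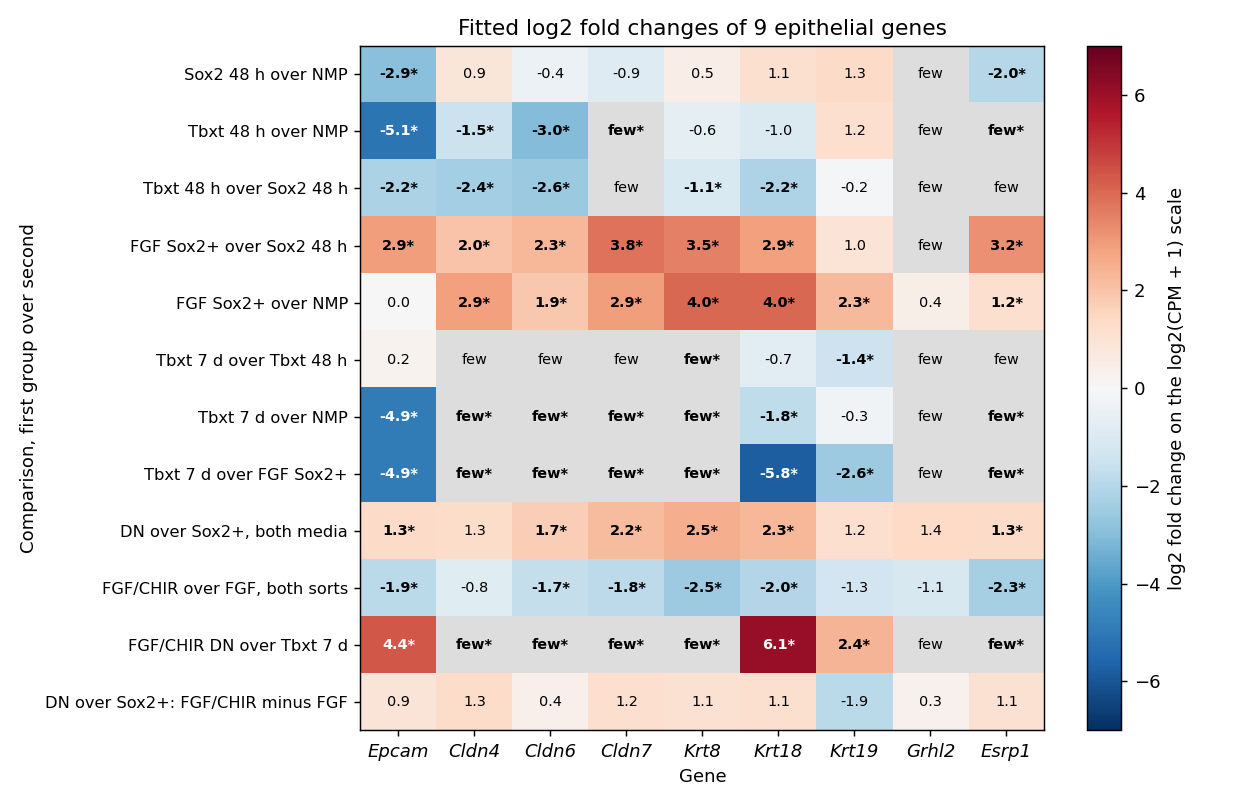
Fitted log2 fold changes on the log2(CPM + 1) scale for 9 genes (columns) in 12 comparisons (rows, first group over second). Bold values with a star had an adjusted p under 0.05, and grey cells marked "few" are genes with at most 3 reads in a compared group, which are given as levels. Red cells in FGF Sox2+ and DN rows and blue cells in Tbxt rows carry most stars. The rows share groups and are not independent.

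Sox2-derived cells kept for 7 d in FGF alone carried the set at high levels. Against Sox2 48 h cells, 7 of the 9 genes rose in FGF Sox2+ cells: Cldn7 (3.80 ± 0.43, adjusted p = 7.6e-05), Krt8 (3.53 ± 0.27, adjusted p = 4.5e-06), Esrp1 (3.19 ± 0.32, adjusted p = 3.1e-05), Epcam (2.94 ± 0.33, adjusted p = 7.4e-05), Krt18 (2.88 ± 0.40, adjusted p = 0.00032), Cldn6 (2.30 ± 0.32, adjusted p = 0.00032) and Cldn4 (2.00 ± 0.46, adjusted p = 0.0073). Over all tested genes 18.2% rose and 6.51% fell, with a median of 0.17. The count includes Cldn7 and Esrp1, whose calls are descriptions here, since they entered the fit only through groups in which they are high. Krt19 (0.96 ± 0.50, adjusted p = 0.18) and Grhl2 did not pass the test. Cldn4 (adjusted p 0.0032 to 0.080 over its alternatives) was lost without Sox2 48 h replicate 2 or FGF Sox2+ replicate 1. Grhl2 passed without FGF Sox2+ replicate 2 (adjusted p 0.00084 to 0.46).

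Against NMPs, 7 of the 9 genes were also higher in FGF Sox2+ cells, with 17.8% of all tested genes higher and 8.21% lower (median 0.13). Krt18 (4.0 ± 0.36, adjusted p = 9.5e-06) and Krt8 (3.99 ± 0.24, adjusted p = 4.0e-07) rose most, followed by Cldn7 (2.91 ± 0.39, adjusted p = 0.00022), Cldn4 (2.86 ± 0.42, adjusted p = 0.00037), Krt19 (2.29 ± 0.46, adjusted p = 0.0032), Cldn6 (1.87 ± 0.29, adjusted p = 0.00060) and Esrp1 (1.19 ± 0.29, adjusted p = 0.011). Cldn7 and Krt19 entered the fit only through groups in which they are high, so their calls in this count are descriptions. Epcam differed by 0.01 ± 0.30 (adjusted p = 0.99), its libraries lying on both sides of the NMP values. Esrp1 (adjusted p 0.0016 to 0.060) was lost without NMP replicate 1. Grhl2 (0.43 ± 0.69, adjusted p = 0.69) had the opposite sign in 1 alternative and passed without FGF Sox2+ replicate 2 (adjusted p 0.0038 to 0.98).

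Of the 2 FGF Sox2+ libraries, replicate 1 was higher for all 9 genes, and the share of all tested genes higher in it was not counted. Where replicate 2 was above 0, the ratio of replicate 1 to replicate 2 ran from 1.19 (Esrp1) to 2.74 (Cldn7). Marker sums differed between these libraries: 5 pluripotency markers summed to 185 CPM in replicate 1 and 45.4 CPM in replicate 2, and 6 mesenchyme markers to 85.1 CPM in replicate 1 and 447 CPM in replicate 2. The part of either in the difference was not tested. Endoderm markers (8 genes) summed to 4.46 and 15 CPM, with Hnf4a, Afp and Apoa1 at 0 in both. Neural progenitor markers (5 genes) summed to 313 and 451 CPM in FGF Sox2+ cells, against 34.3 to 69.0 CPM in Sox2 48 h cells.

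Many other epithelial genes were higher in FGF Sox2+ cells than in Sox2 48 h cells. All 5 tested epithelial regulators rose (median 2.62), among them Elf3 (3.03 ± 0.42), an epithelial ETS factor gene, Klf5 (2.62 ± 0.43) and Rbm47, an RNA-binding protein gene (17.5 CPM against 0.24 CPM). Of 10 tested genes of adherens junctions and desmosomes 7 rose (median 1.86), with Cdh1 (3.41 ± 0.37), the plakoglobin gene Jup (2.25 ± 0.27) and the plakophilin gene Pkp3 (5.16 CPM against 0.24 CPM). Tight junction genes rose in 8 of 15 (median 1.07), led by Llgl2 (2.93 ± 0.37), the apical polarity gene Crb3 (2.59 ± 0.31) and Patj (1.95 ± 0.41). Surface and trafficking genes rose in 8 of 10 (median 1.62), with Prss8 (7.49 CPM against 0.13 CPM), the prostasin gene, and Ap1m2 (6.31 CPM against 0.24 CPM), an adaptor subunit gene of basolateral sorting. These 4 lists had 0 lower genes in this comparison. Of 10 listed regulators, 5 passed the filter. Rbm47, Pkp3, Prss8 and Ap1m2 did not reach the filter in Sox2 48 h cells, so their calls here are descriptions.

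Few other claudins and keratins were tested. Of 33 further claudin genes only Cldn3 and Cldn12 passed the filter, and Cldn3 (3.20 ± 0.41) was higher and Cldn12 (-0.70 ± 0.19) lower in FGF Sox2+ cells against Sox2 48 h cells. Of 52 further keratin genes 4 passed the filter, and Krt7, a keratin of simple and ductal epithelia, was the 1 called, at 5.73 and 2.5 CPM in FGF Sox2+ cells against 0.252 and 0.457 CPM in Sox2 48 h cells. Krt14, a keratin of stratified epithelia, stood at 4.10 and 26.7 CPM in FGF Sox2+ cells and was not called.

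At 7 d the double-negative cells of both media were higher than the mCherry-positive cells of the same medium. As a mean over both media, 6 of the 9 genes were higher in DN cells: Krt8 (2.53 ± 0.25, adjusted p = 2.7e-05), Krt18 (2.34 ± 0.37, adjusted p = 0.0012), Cldn7 (2.21 ± 0.40, adjusted p = 0.0031), Cldn6 (1.73 ± 0.30, adjusted p = 0.0021), Esrp1 (1.34 ± 0.30, adjusted p = 0.011) and Epcam (1.33 ± 0.31, adjusted p = 0.014). Over all tested genes 7.12% were higher and 6.99% lower, with a median of -0.10. Cldn4 (1.28 ± 0.43, adjusted p = 0.065), Krt19 (1.2 ± 0.47, adjusted p = 0.11) and Grhl2 (1.37 ± 0.70, adjusted p = 0.22) did not pass. These p-values rest on the spread of other groups, since 3 of the 4 groups have 1 library, and DN cells cannot be told apart from the DN libraries. The calls on Cldn7 and Esrp1 are descriptions here, since neither reached the filter in FGF/CHIR Sox2+ cells. Single exclusions called Cldn4 without FGF Sox2+ replicate 1 or Tbxt 7 d replicate 1 (adjusted p 0.015 to 0.15 over its alternatives) and Krt19 without Tbxt 7 d replicate 1 (0.013 to 0.32).

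Set side by side, all 9 genes were higher in FGF/CHIR DN than in FGF/CHIR Sox2+ cells, from 1.22-fold (Krt19) to 9.0-fold (Krt8), and all 9 had a higher mean in FGF DN than in FGF Sox2+ cells, from 1.40-fold (Cldn4) to 4.67-fold (Krt19). Cldn4 and Grhl2 of FGF DN cells lay within the range of the FGF Sox2+ libraries. How many of all tested genes were higher in each pair was not counted, so these directions are descriptions. The difference between media (FGF/CHIR minus FGF) of the DN to Sox2+ difference passed the test for 0 of the 9 genes in limma, with 2.44% of all tested genes called in either direction, and Krt8 (1.09 ± 0.50) was the 1 gene that passed an unadjusted threshold of 0.05. Krt19 (-1.89 ± 0.94, adjusted p = 0.39) was the gene of opposite sign.

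Sums of some marker lists stood apart in the DN libraries, while others did not. Endoderm markers (8 genes) summed to 1171 CPM in FGF DN cells and 189 CPM in FGF/CHIR DN cells, against 4.46 and 15 CPM in FGF Sox2+ and 4.21 CPM in FGF/CHIR Sox2+ cells. Sox17 and Gata6, transcription factor genes of endoderm, stood at 228 and 460 CPM in FGF DN cells and at 37.9 and 99.0 CPM in FGF/CHIR DN cells. Afp and Apoa1 were at 0 in FGF/CHIR DN cells, and no marker of the list was at 0 in FGF DN cells. Pluripotency markers summed to 345 CPM in FGF/CHIR DN cells, against 5.16 CPM in FGF/CHIR Sox2+ cells. In FGF DN cells they summed to 192 CPM, against 185 and 45.4 CPM in the FGF Sox2+ libraries. Endothelial markers (5 genes) summed to 61.7 CPM in FGF DN cells. Surface ectoderm markers (6 genes) summed to 63.8 and 75.3 CPM in FGF/CHIR DN and FGF DN cells, against 52.0 CPM in FGF/CHIR Sox2+ and 69.6 to 91.2 CPM in FGF Sox2+ cells. Smooth muscle markers (4 genes) summed to 378 and 186 CPM in FGF DN and FGF/CHIR DN cells. They summed to 27.9 to 54.0 CPM in FGF Sox2+ and 47.5 CPM in FGF/CHIR Sox2+ cells. Mesenchyme markers (6 genes) summed to 398 CPM in FGF DN cells, within the 85.1 to 447 CPM of the FGF Sox2+ libraries. They summed to 2283 CPM in FGF/CHIR DN cells, against 536 CPM in FGF/CHIR Sox2+ cells. A list of 8 genes of the mesenchymal state summed to 9306 and 5226 CPM in FGF DN and FGF/CHIR DN cells. Its sum was 1211 to 2206 CPM in FGF Sox2+ and 7940 to 10579 CPM in Tbxt 7 d cells. The part of these in the levels of the 9 genes was not tested.

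Among the wider lists, Cdh1 (2.39 ± 0.35), Dsg2 (2.16 ± 0.39) and Jup (1.69 ± 0.25) were the 3 of 10 adherens junction and desmosome genes higher in DN cells (median 0.83). Tight junction genes were higher in 6 of 15 (median 1.00), led by Ocln (2.08 ± 0.33), Crb3 (1.90 ± 0.29) and Marveld2 (1.82 ± 0.42). Rbm47 (3.28 ± 0.54), Elf3 (2.92 ± 0.40) and Klf5 (2.14 ± 0.40) were among 4 of 5 higher regulators (median 2.14). Grhl3 was the 1 lower, at 2.06 CPM in FGF DN and 2.51 CPM in FGF/CHIR DN cells, against 23.5 CPM in FGF Sox2+ and 2.88 CPM in FGF/CHIR Sox2+ cells. Surface and trafficking genes were higher in 7 of 10 (median 1.31) and Cxadr was the 1 lower, at 37.6 CPM in FGF DN and 25.6 CPM in FGF/CHIR DN cells, against 65.2 CPM in FGF Sox2+ and 51.7 CPM in FGF/CHIR Sox2+ cells. Among the higher was F3 (3.15 ± 0.47), the tissue factor gene, at 102 CPM in FGF DN cells against 2.75 CPM in FGF Sox2+ cells. Krt7 (2.73 ± 0.38) was higher, at 36.5 CPM in FGF DN cells and 8.23 CPM in FGF/CHIR DN cells. Snai1 (3.13 ± 0.26) was higher as well, at 149 CPM in FGF DN cells and 82.3 CPM in FGF/CHIR DN cells, against 9.90 CPM in FGF Sox2+ and 14.1 CPM in FGF/CHIR Sox2+ cells.

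CHIR in the medium went with lower levels. As a mean over both sorts, 6 of the 9 genes were lower in FGF/CHIR than in FGF cells: Krt8 (-2.54 ± 0.25, adjusted p = 4.5e-05), Esrp1 (-2.32 ± 0.30, adjusted p = 0.00030), Krt18 (-2.03 ± 0.37, adjusted p = 0.0034), Epcam (-1.87 ± 0.31, adjusted p = 0.0017), Cldn7 (-1.84 ± 0.40, adjusted p = 0.0093) and Cldn6 (-1.69 ± 0.30, adjusted p = 0.0026). Over all tested genes 7.86% were lower and 5.94% higher. The p-values of this comparison rest on the spread of other groups, since 3 of the 4 groups have 1 library. Cldn7 and Esrp1 did not reach the filter in FGF/CHIR Sox2+ cells, so their calls here are descriptions. Cell type markers moved in the same comparison, and their part in the lower levels was not tested. Of the markers tested, 4 of 5 for endoderm (median -1.94) and 4 of 5 for pluripotency (median -2.13) were lower with 0 higher, while 3 of 4 for neural progenitors were lower with 1 higher (median -3.78) and 3 of 6 for mesenchyme were higher with 0 lower (median 1.5). Neural progenitor markers summed to 41.7 CPM in FGF/CHIR Sox2+ and 19.4 CPM in FGF/CHIR DN cells, against 313 and 451 CPM in the FGF Sox2+ libraries and 27.9 CPM in FGF DN cells. Cldn4 (-0.84 ± 0.43, adjusted p = 0.21), Krt19 (-1.35 ± 0.47, adjusted p = 0.078) and Grhl2 (-1.12 ± 0.70, adjusted p = 0.31) did not pass. Krt19 passed without Tbxt 7 d replicate 1 (adjusted p 0.0069 to 0.26 over its alternatives) and Grhl2 without FGF Sox2+ replicate 2 (0.0022 to 0.49). Krt18 (0.00020 to 0.072) was lost at a pseudocount of 0.25.

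Between the mCherry-positive cells, the FGF/CHIR value was below the FGF Sox2+ mean for all 9 genes, with ratios from 0.0667 (Esrp1) to 0.704 (Krt19), and it lay below both FGF Sox2+ libraries for 8, all but Grhl2. Between the DN libraries the FGF/CHIR value was lower for all 9, with ratios from 0.185 (Krt19) to 0.872 (Cldn4). FGF/CHIR Sox2+ cells over Sox2 48 h cells, which grew in the same factors, gave ratios of 8 genes that ran from 1.23 (Krt18) to 3.79 (Cldn7), while Grhl2 lay within the Sox2 48 h range. These ratios have no replicate check. The share of all tested genes that lay in the same direction in each pair was not counted, so the directions are descriptions.

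Lower genes in FGF/CHIR cells included 8 of 15 tight junction genes with 0 higher (median -1.14), among them Lsr (-1.58 ± 0.28), Marveld2 (-1.51 ± 0.42) and Crb3 (-1.49 ± 0.29). Cdh1 (-1.69 ± 0.35), the desmoplakin gene Dsp (-1.59 ± 0.42) and Jup (-0.84 ± 0.25) made 3 of 10 adherens junction and desmosome genes (median -1.10). Rbm47 (-2.5 ± 0.54), Esrp2 (-1.50 ± 0.33) and Grhl3 (-1.23 ± 0.33) made 3 of 5 regulators (median -1.23), and surface and trafficking genes gave 3 lower and 1 higher of 10 (median -0.96). The 1 higher was Cd24a, which stood in FGF/CHIR medium at 498 CPM in DN and 341 CPM in Sox2+ cells, against 144 and 341 CPM in the same sorts in FGF. The median over all tested genes was -0.03. Of 8 EMT factor genes 4 were higher and 0 lower in FGF/CHIR cells (median 1.98), with Prrx1 (3.75 ± 0.64), Twist2 (3.70 ± 0.69) and Twist1 (3.52 ± 0.38), mesenchymal transcription factor genes.

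**Figure D4:**
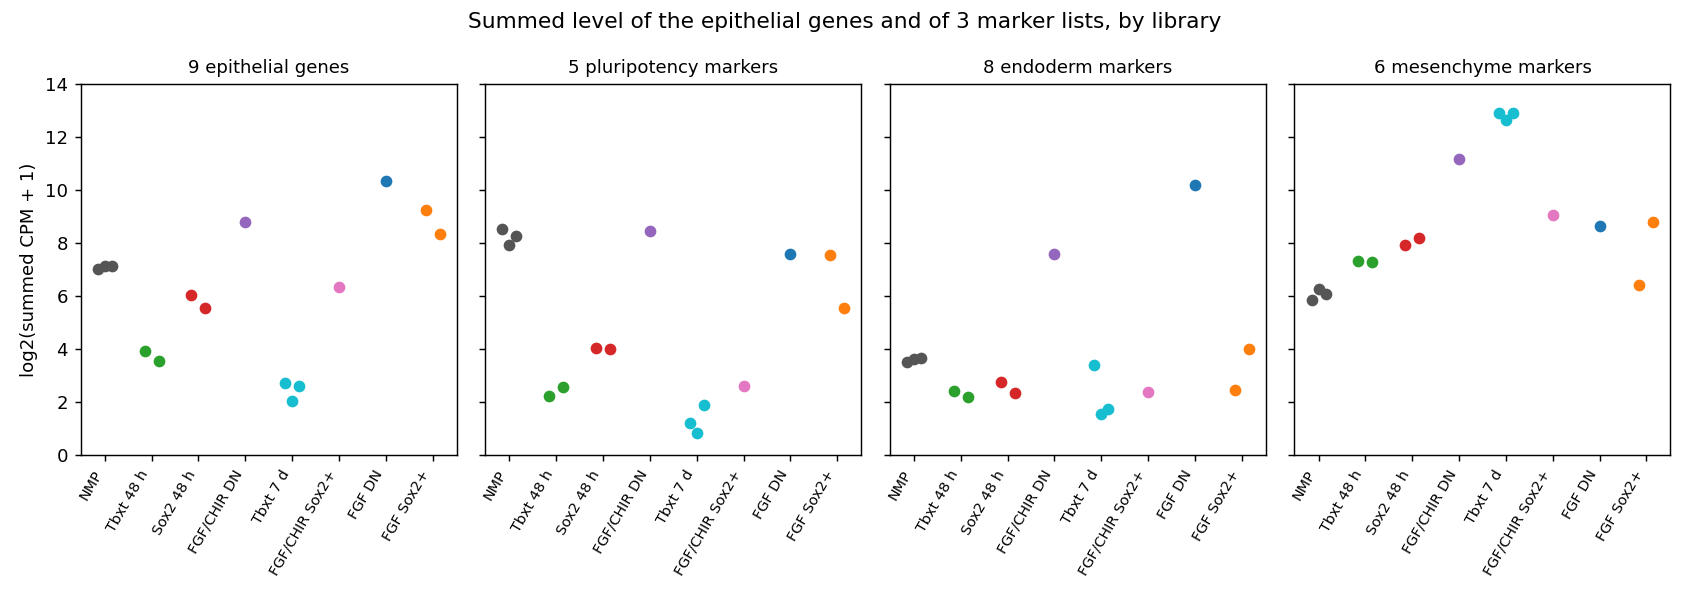
Summed CPM of the 9 epithelial genes and of 3 marker lists, as log2(summed CPM + 1), in the 8 groups (horizontal axes), 1 point per library. FGF DN was highest for the epithelial genes and for endoderm markers, NMPs and FGF/CHIR DN were highest for pluripotency markers, and Tbxt 7 d cells were highest for mesenchyme markers and lowest for the epithelial genes.

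Tbxt-derived cells at 7 d carried almost none of the set. The 9 genes together summed to 3.17 to 5.53 CPM in Tbxt 7 d libraries, against 10.8 to 14.1 CPM in Tbxt 48 h libraries and 128 to 139 CPM in NMPs. Against NMPs, 7 of the 9 genes were lower, with 29.7% of all tested genes lower and 33% higher. The count includes Esrp1, whose call is a description, given the groups through which it entered the fit. Epcam (-4.90 ± 0.27, adjusted p = 1.8e-08) and Krt18 (-1.76 ± 0.33, adjusted p = 0.00044) fell. Cldn6 was at least 13.7-fold lower and Esrp1 at least 6.48-fold lower against the 3-read floor per library (adjusted p = 2.1e-07 and 3.5e-06), and Krt8, Cldn4 and Cldn7 were also lower at the levels given above (adjusted p = 5.8e-07, 0.00018 and 0.00063). Krt19 (-0.27 ± 0.41, adjusted p = 0.59) was at 2.33, 0 and 0.263 CPM and did not pass, except without Tbxt 7 d replicate 1 (adjusted p 0.043 to 0.89 over its alternatives). Grhl2, with 1 read in 3 libraries, did not pass (adjusted p = 0.13), but did without FGF Sox2+ replicate 2 (0.0031 to 0.30).

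Several of the 9 genes were already at or near 0 in Tbxt 48 h cells, where Grhl2 had 0 reads, Esrp1 1, Cldn7 2 and Cldn6 6. This left little room to see a further fall of these at the pseudocount of 1. With a pseudocount of 0.25 in the limma fit, Cldn6 was called lower in Tbxt 7 d than in Tbxt 48 h cells (adjusted p = 0.0063). Between Tbxt 7 d and Tbxt 48 h cells 2 of the 9 genes were lower, Krt8 (0.291, 0 and 0.395 CPM against 3.29 and 4.30 CPM, adjusted p = 2.5e-05) and Krt19 (-1.43 ± 0.46, adjusted p = 0.018), in a comparison in which 23.5% of all tested genes were lower and 30.7% higher, so the share is near the background. Epcam differed by 0.24 ± 0.30 (adjusted p = 0.52). Krt19 (adjusted p 0.00032 to 0.16 over its alternatives) was lost, and the count was 1, without Tbxt 48 h replicate 1, Tbxt 7 d replicate 2 or Tbxt 7 d replicate 3. Other junction genes fell at this later step: F11r (-5.00 ± 0.36), the gene of junctional adhesion molecule A, stood at 2.22 CPM in Tbxt 7 d cells, against 94.6 CPM in Tbxt 48 h cells and 99.4 CPM in NMPs. Lsr (0, 0.396 and 0.263 CPM against 32.5 and 17.4 CPM) and Grhl3 (0 CPM against 10.6 CPM) were lower as well, while Jup (3.73 ± 0.24) and Patj (3.01 ± 0.38) were higher. Twist1 (6.98 ± 0.37) and Prrx1 (7.58 ± 0.62) were among 5 of 8 higher EMT factor genes, and 6 mesenchyme markers summed to 6361 to 7661 CPM in Tbxt 7 d cells, against 153 to 160 CPM in Tbxt 48 h cells.

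The 7 d cells of the 2 lineages were also compared directly. Against FGF Sox2+ cells, 8 of the 9 genes were lower in Tbxt 7 d cells, with 26.5% of all tested genes lower and 21.1% higher. Krt18 (-5.76 ± 0.36, adjusted p = 1.4e-07), Epcam (-4.90 ± 0.30, adjusted p = 1.2e-07) and Krt19 (-2.55 ± 0.46, adjusted p = 0.00060) fell, Cldn6 was at least 57.0-fold and Esrp1 at least 16.4-fold lower against the floor (adjusted p = 4.9e-08 and 7.6e-07, with 36.6-fold for Cldn6 without FGF Sox2+ replicate 1), and Krt8, Cldn4 and Cldn7 were lower at the levels given above (adjusted p = 3.0e-09, 1.1e-06 and 1.3e-06). The calls on Cldn7, Krt19 and Esrp1 are again descriptions, since these genes entered the fit only through groups in which they are high. Grhl2 (adjusted p = 0.084) passed without FGF Sox2+ replicate 2 (6.8e-05 to 0.23 over its alternatives). Of 15 tested tight junction genes 12 were lower and 1 higher (median -2.86). All 5 tested regulators were lower (median -3.29), against a median of -0.07 over all tested genes.

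Double-negative cells of the 2 lineages differed. FGF/CHIR DN and Tbxt 7 d cells grew for 7 d in the same factors and were both sorted without either reporter, and 8 of the 9 genes were higher in FGF/CHIR DN cells, with 8.86% of all tested genes higher and 7.88% lower. Epcam (4.37 ± 0.38, adjusted p = 2.0e-05), Krt18 (6.08 ± 0.46, adjusted p = 6.0e-06) and Krt19 (2.40 ± 0.58, adjusted p = 0.015) were higher. Cldn6 was at least 55.0-fold and Esrp1 at least 7.59-fold higher against the floor (adjusted p = 3.1e-06 and 0.00044), and Krt8, Cldn4 and Cldn7 were higher at the levels given above (adjusted p = 1.6e-07, 3.7e-05 and 4.1e-05). For Cldn7, Krt19 and Esrp1, which entered the fit only through groups in which they are high, the calls are descriptions. Grhl2 (adjusted p = 0.18) passed without FGF Sox2+ replicate 2 (0.0074 to 0.32). The comparison rests on 1 FGF/CHIR DN library, whose endoderm and pluripotency marker sums of 189 and 345 CPM stood against 1.98 to 9.61 and 0.792 to 2.77 CPM in Tbxt 7 d cells, and their part in the difference was not tested. Mesenchyme markers summed to 2283 CPM in that library.

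Across the 8 groups, the genes most like the mean profile of the 9 were named by Pearson r of log2(CPM + 1) group means, among 9118 other tested genes with a mean of at least 20 CPM in their highest group. Itga3 (r = 0.996), an integrin subunit gene, was closest, followed by Sfmbt2 (0.984), Crb3 (0.981), Klf9 (0.972), Llgl2 (0.972), Eps8l2 (0.967), Mcl1 (0.964) and Esx1 (0.964). Itga3 stood at 32.8 CPM in FGF DN cells, 16.0 CPM in FGF/CHIR DN cells, 15.3 CPM in FGF Sox2+ cells, 4.07 CPM in NMPs and 0.251 CPM in Tbxt 7 d cells. Sfmbt2, a Polycomb-group gene, stood at 109, 53.3, 73.4, 10.3 and 1.10 CPM in the same groups. Among the 9 genes themselves, the 36 pairwise r ran from 0.590 (Epcam with Krt19) to 0.989, with a median of 0.911. These r are over 8 group means, of which 3 are single libraries, and are descriptions.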

How the data were processed

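The deposited table holds CPM values, read counts scaled by the authors to a common library total, of 78409 rows for 15 sorted bulk RNA libraries. Per the labels' protocols, RNA was extracted on beads and primed with oligo-dT carrying molecular identifiers, and cDNA was tagmented. Per the submitters' processing notes, STAR 2.7, SAMtools 1.21 and GRCm39 were used, while annotation, counting, identifiers and multiply mapped reads had no step given in the sources used here. CPM sums to 1000000 in each library over all rows, as tested on the deposited file.

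Rows without a gene name (21909, 1.10 to 1.81% of CPM) and 92 spike-in rows were left out, and 627 rows sharing a symbol were summed by symbol. Groups came from the sample titles. limma 3.58.1 (limma-trend, robust, two-sided) in R 4.3.3 was fitted to log2(CPM + 1) of the 12943 genes that reached 5 CPM in 2 or more libraries, for 15 libraries in 8 groups, with Benjamini-Hochberg adjustment over all of them. Single-library groups took the spread of the others. Within 0.01 reads, 71.1 to 78.7% of the values above 0 in a library were whole multiples of 1 read, taken from the commonest value, so reads were not recovered and no count test was run. In simulated libraries with 200 changed genes among 12943 and a dispersion of 0.01, 11 of the 12 comparisons recovered 60 to 88% of 2-fold changes. Of 4-fold changes they recovered 93 to 100%, with 1 to 60 false calls. The comparisons of FGF Sox2+ cells with Sox2 48 h, NMP and Tbxt 7 d cells gave 54, 57 and 60 false calls. None of the others gave more than 7. The difference of differences between sorts and media recovered 16% and 70%. The dispersion was set and not estimated from the libraries. Since the FGF Sox2+ libraries differed by up to 2.74-fold among the 9 genes, these rates may overstate recovery in the data.

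The 9 genes and all gene lists were chosen with earlier results of these data known. By rule the text names, beyond the 9, up to 3 called genes of largest change per list and comparison, the reporters, the most abundant genes of a list and the 8 genes most alike in profile, and not all of these are printed (some are not reported here). Krt14, Cxadr, Cd24a, Grhl3 in the DN comparison, and the markers listed at 0 were chosen after their values were seen. Alternatives were other pseudocounts, filters and scalings, fitting only the compared groups, a replicate block and leaving out each replicate. Floors of 3 reads use the mean of the group's libraries. Python 3.11.15, pandas 2.3.3, numpy 2.4.6 and matplotlib 3.10.9 were used.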

Additional observations from a re-analysis of the deposited data

Results flagged for a closer look

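Cldn4, Krt18 and Krt8 had values below NMPs in Tbxt 48 h cells and above NMPs in Sox2 48 h cells, and the difference between the 2 sorts passed the test. Cldn4 differed by -2.38 on the log2 scale (Tbxt 48 h minus Sox2 48 h, SE 0.46), at 0.877 ± 0.764 CPM in Tbxt 48 h cells and 8.63 ± 3.15 CPM in Sox2 48 h cells (SD, n = 2 each). Krt18 differed by -2.16 (SE 0.40), at 1.89 ± 0.763 and 11.7 ± 0.988 CPM in the same groups. Krt8 differed by -1.09 (SE 0.27), at 3.80 ± 0.717 and 9.41 ± 3.12 CPM in the same groups. Against NMPs, only Cldn4 in Tbxt 48 h cells passed the test among these 6 effects.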

How the results depend on the processing

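Over the alternatives run, no called value of the 9 genes changed direction. Counts of called genes among the 9 stayed within 1.5 times for 8 of the 12 comparisons. For Sox2 48 h against NMP cells the count of 2 became 1 with a 20 CPM filter, which tests 6 of the 9 genes, and 4 with quantile normalization or with the compared groups alone. For Tbxt 48 h against NMP cells the count of 5 became 3 at a pseudocount of 4 and 8 with the groups alone, and 3 to 7 when single libraries were left out. For Tbxt 48 h against Sox2 48 h cells the count of 5 became 3 at a pseudocount of 0.25, and 2 to 5 when single libraries were left out. For Tbxt 7 d against Tbxt 48 h cells the count of 2 became 4 at a pseudocount of 0.25, 1 without a filter, 1 with the 20 CPM filter, 1 with the groups alone, and 1 to 2 when single libraries were left out. Apart from the smaller number of genes tested, the cause was not tested.

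Among single genes, 38 of 1284 values with a library left out and 32 of 756 values under other alternatives changed their side of the threshold. Same-numbered libraries of different groups had correlations of -0.188 to 0.480 (median -0.0812, 21 pairs). The highest were those of NMP with Tbxt 48 h libraries, 0.480 for replicate 1 and 0.457 for replicate 2. With these numbers crossed they were -0.480 and -0.457, which was fixed in advance. The correlations are of deviations from group means, and those of 2 libraries are exact opposites, so the crossed values add nothing. Whether the numbers pair libraries in these groups cannot be told from the labels. The main fit did not take them to pair libraries. With a replicate block, fitted for the 8 comparisons of replicated groups, the count for Tbxt 48 h against Sox2 48 h cells was 4, because Krt8 did not pass (adjusted p = 0.087), and no other call on the 9 genes changed. The block and the fit of the compared groups alone were not run for the 4 comparisons with single-library groups.

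Counts over all genes moved by over 1.5 times in 8 comparisons. For Sox2 48 h against NMP cells 1025 became 611 and 552 without NMP replicate 2 or 3, 518 and 315 without Sox2 48 h replicate 1 or 2, 1565 without Tbxt 7 d replicate 1, 668 with the 20 CPM filter, 1760 with the groups alone and 683 with the block. For Tbxt 48 h against NMP cells 2376 became 1469 and 1507 without NMP replicate 1 or 3, and 702 without Tbxt 48 h replicate 2. For Tbxt 48 h against Sox2 48 h cells 505 became 1051 with the groups alone, 923 without Tbxt 7 d replicate 1, 322 and 124 when Tbxt 48 h replicate 1 or 2 was left out, 148 when Sox2 48 h replicate 2 was, and 336 when NMP replicate 3 was. For FGF Sox2+ against Sox2 48 h cells 3203 became 2086 and 1453 without Sox2 48 h replicate 1 or 2, and 2003 without FGF Sox2+ replicate 2, and against NMP cells 3371 became 1745 without the last. For FGF/CHIR DN against Tbxt 7 d cells 2167 became 1367 without Tbxt 7 d replicate 3. For FGF/CHIR against FGF 1786 became 2771 without a filter. For the difference between sorts and media 316 became 1229 without a filter, 186 without NMP replicate 3, 589 without FGF Sox2+ replicate 1 and 701 without Tbxt 7 d replicate 1. Depth limits Grhl2, which has 0 reads among the 798695 of FGF Sox2+ replicate 2.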
